A study of Mus musculus with 96 samples.

Results

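The miR-106b, miR-93 and miR-25 hairpins lie in 1 intron of Mcm7, a gene whose product is a subunit of the helicase that unwinds DNA for replication. The cluster was described by the 6 mature arms that bear these names (mmu-miR-106b-5p, mmu-miR-106b-3p, mmu-miR-93-5p, mmu-miR-93-3p, mmu-miR-25-3p and mmu-miR-25-5p, written below without the mmu that marks the mouse), out of 1978 mature miRNAs listed for each library. They were picked by name, and the cluster was taken up because the ratio of the miR-106b arms in cardiomyocytes was already known to move over the days of these data. Values in cardiomyocytes against D0 are therefore a description without a test, and tests are given for the other cell types and between cell types.

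Hematopoietic cells (HCs), fibroblasts (FBs), endothelial cells (ECs) and cardiomyocytes (CMs) were the sources of the small RNA, from hearts of male C57Bl6/J mice aged 12 to 14 weeks. Hearts were taken from mice without operation (D0) or 1, 3, 7, 14 and 28 days (D1 to D28) after myocardial infarction (MI) by permanent ligation of a coronary artery. No genetic change or drug was used to form the groups. Each of the 24 groups of cell type and day had 4 libraries, giving 96 libraries, and each RNA was a pool from 3 mice, or 2 where a mouse was missing. The pools of the 4 cell types at a day came from the same mice by the study's methods. Tests that join cell types treat their libraries as independent, and it is not stated that equal replicate numbers mark the same pool. D0 had no operation, so surgery and infarction cannot be told apart.

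CMs were enriched by centrifugation, ECs by beads against CD144, HCs by beads against CD45 and FBs by adherence to plastic, so each is an enriched fraction rather than 1 cell type. Each of the marker lists for the 4 cell types (4 miRNAs for CMs, 2 for ECs, 3 for FBs and 4 for HCs) had all of its members at their highest mean level in its own cell type, and no marker was at 0 in all libraries of another. Libraries held 18286 to 29504666 counts on mature miRNAs in HCs, 2217588 to 65588543 in FBs, 525651 to 29037628 in ECs and 3327351 to 24279105 in CMs. The library with 18286 counts was replicate 3 of HCs at D0, in which 219 miRNAs were detected. It was kept, and some results, such as the number of calls in HCs, are also given without it. Levels are CPM, the count of a miRNA scaled to a fixed total of counts on mature miRNAs in the library. A fraction could hold more of the markers of others than of its own. In HCs at D0 the mean summed level was 109682 CPM for the CM markers and 72290 for the EC markers, against 8025 for the HC markers. Markers of mural cells were highest in ECs and those of erythroid cells in FBs. Statements that the libraries of a day lay above, below or apart from those of D0 describe the named arm and are no test. The share of all miRNAs that did so is given for ECs at D3 alone. In bulk RNA of this kind, more of a miRNA per cell and more cells that hold it cannot be told apart.

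A hairpin is cut out of the host transcript, its loop is removed, and of the duplex that is left mainly 1 strand is loaded into Argonaute while the other is degraded. The strand from the left arm is called 5p and that from the right arm 3p. Bases 2 to 8 of the loaded strand, the seed, pair with target transcripts. miR-106b-5p and miR-93-5p have the seed of the miR-17 family, known for holding down inhibitors of the cell cycle such as Cdkn1a and the proapoptotic Bcl2l11, and miR-25-3p has the seed of the miR-92 family. The paralogous clusters, miR-17-92 and miR-106a-363, carry miRNAs of both seeds. In the heart miR-25 has been studied for its action on the calcium pump of the sarcoplasmic reticulum.

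The mature sequences are shown because the 6 arms fall into 1 pair with a common seed and 4 that stand apart. They were taken from RefSeq (GRCm38.p6), where all 6 of 6 arms were matched, and the capitals mark the seed.
miR-106b-5p: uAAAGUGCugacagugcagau
miR-93-5p: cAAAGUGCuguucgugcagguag
miR-25-3p: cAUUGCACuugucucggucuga
miR-106b-3p: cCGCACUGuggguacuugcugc
miR-93-3p: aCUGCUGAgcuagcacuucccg
miR-25-5p: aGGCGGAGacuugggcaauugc

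The seed of miR-106b-5p and miR-93-5p was the same, and each shared it with 6 other mature miRNAs of the mouse. miR-25-3p shared its seed with 5 others, and the remaining arms shared theirs with 0. The closest other sequence was 3 mismatches away for miR-106b-5p (miR-106a-5p), for miR-93-5p (miR-20b-5p) and for miR-25-3p (miR-92a-3p), and 6 to 8 mismatches away for the other arms. No arm of the cluster had counts identical to those of another miRNA. How reads that match several sequences equally well were counted is not given in the sources used here.

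The hairpins are shown to place both arms within each precursor, and the capitals mark the mature arms. Mir106b lies at chr5:138165737-138165818, Mir93 at chr5:138165523-138165610 and Mir25 at chr5:138165321-138165404 of GRCm38.p6, all on the minus strand.
Mir106b: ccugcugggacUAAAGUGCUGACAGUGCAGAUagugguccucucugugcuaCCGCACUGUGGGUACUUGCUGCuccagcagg
Mir93: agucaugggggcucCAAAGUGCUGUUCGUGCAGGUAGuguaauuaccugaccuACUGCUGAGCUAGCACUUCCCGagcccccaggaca
Mir25: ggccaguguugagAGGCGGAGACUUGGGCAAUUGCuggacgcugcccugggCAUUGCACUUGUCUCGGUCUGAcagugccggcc

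All 3 hairpins lay in intron 13 of a transcript of Mcm7 with 15 exons (ENSMUSG00000029730.16, gene at chr5:138164583-138172422). The intron ran from 138165162 to 138165909 and was 748 bases long, and 126 and 118 bases separated the hairpins. Mir93 and Mir25 also overlapped an exon of another Mcm7 transcript, which is annotated as retaining an intron. All 3 precursors are thus part of 1 host transcript, and differences among their arms in the data below are differences among products of the same intron.

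The levels of the cluster over all days differed among the cell types. miR-25-3p was the most abundant arm in every cell type, with a mean over 24 libraries of 4895 ± 1432 CPM (SD) in HCs, 2699 ± 751 in ECs, 2382 ± 511 in FBs and 380 ± 88.5 in CMs. miR-93-5p followed, with 1848 ± 677 CPM in HCs, 605 ± 212 in ECs, 449 ± 341 in FBs and 175 ± 111 in CMs. The arms are 21 to 23 bases long, so they differ little in length. By the study's methods, libraries were made by ligation to both ends of the small RNAs. How well each arm was captured was not measured, so comparisons between arms are of counts rather than of molecules.

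The miR-106b arms were less abundant and differed in their order. miR-106b-3p had 410 ± 128 CPM (SD, n = 24) in HCs, 286 ± 149 in ECs, 185 ± 64.6 in FBs and 39.7 ± 6.39 in CMs. In the same order of cell types miR-106b-5p had 247 ± 185, 51.2 ± 20.9, 41.2 ± 30.2 and 53.4 ± 49.3 CPM. The remaining arms were rare. miR-93-3p had means of 4.63, 1.83, 1.65 and 0.403 CPM in that order, and miR-25-5p 5.498, 4.38, 1.99 and 0.155 CPM. In CMs miR-25-5p had 0 to 5 counts and miR-93-3p 0 to 15 counts per library, which is too few to follow either arm there.

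**Figure D1:**
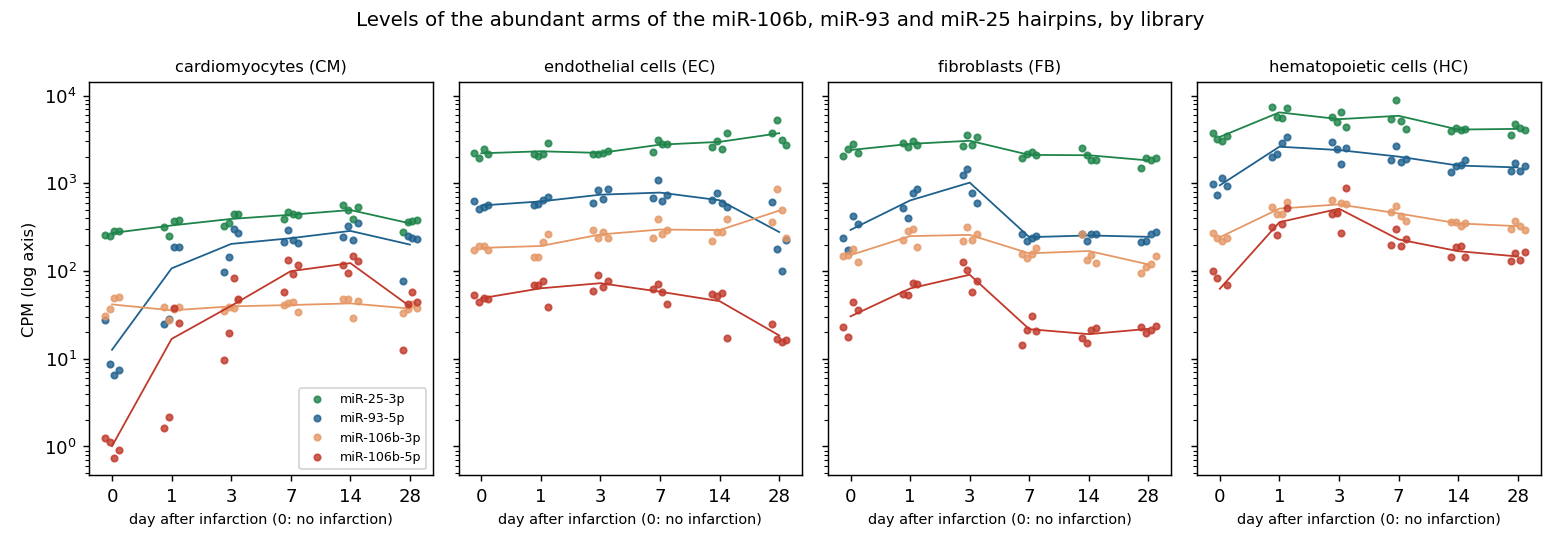
Level of the 4 abundant arms in each library (points) and the mean of the 4 libraries of a group (lines), in CPM on a log axis, against the day after infarction, in the 4 cell types. A library with 0 counts (miR-106b-5p in replicate 3 of HCs at D0) has no point on the log axis but is in the mean. miR-106b-5p in CMs starts near 1 CPM and reaches 95.2 to 149 CPM at D14, while miR-25-3p in CMs stays between 248 and 566 CPM.

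The make-up of the cluster, the share of each arm in the summed counts of the 6 arms, does not depend on how libraries are scaled. miR-25-3p held 79.2% ± 6.31 (SD, n = 24) of the summed counts in FBs, 73.5% ± 5.28 in ECs, 66.6% ± 5.505 in HCs and 62.8% ± 12.9 in CMs. In that order miR-93-5p held 13.4% ± 5.86, 17.2% ± 5.94, 24.6% ± 4.02 and 23.5% ± 11.6. In CMs the share of miR-106b-5p ranged from 0.216% to 18.7% over the libraries, against 0.265% to 2.70% in ECs, 0.567% to 3.01% in FBs and 0% to 10.5% in HCs. The 0% is the library with 18286 counts.

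**Figure D2:**
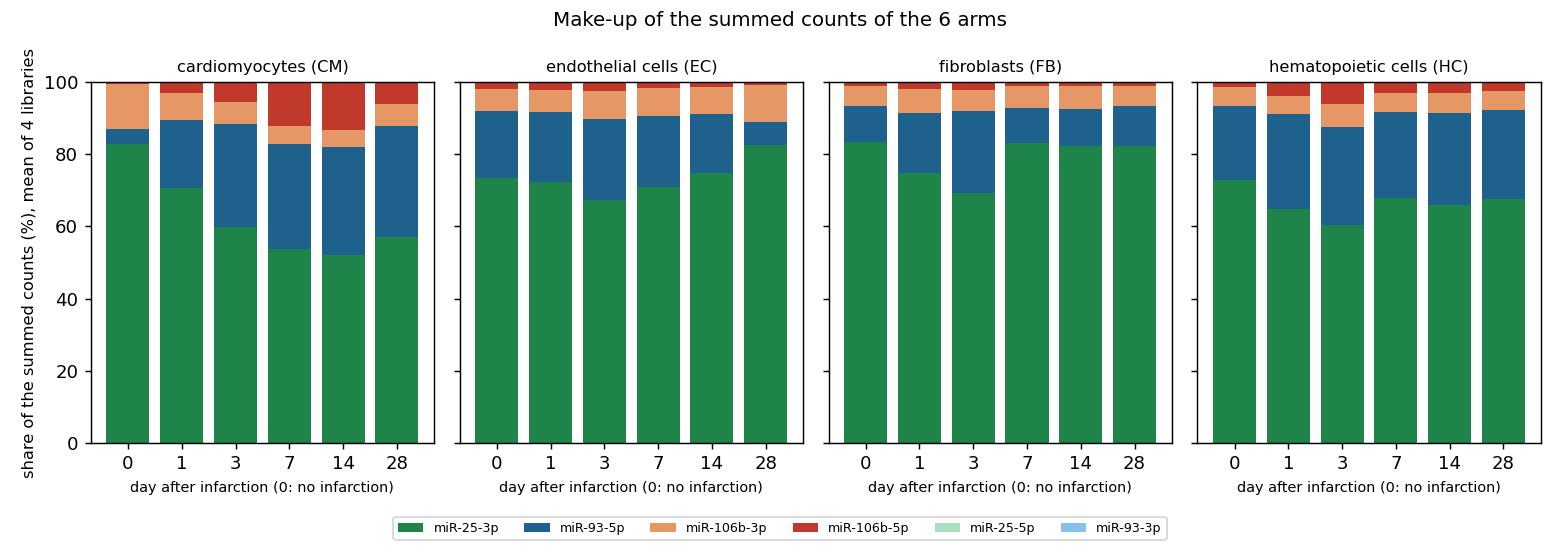
Mean share of each of the 6 arms in their summed counts (stacked bars, percent, 4 libraries per bar) against the day after infarction, in the 4 cell types. In CMs miR-25-3p takes a smaller part of the bar at D14 than at D0 and the miR-106b-5p and miR-93-5p parts are larger, while miR-93-3p and miR-25-5p are too thin to be seen.

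Differences between cell types were tested on the mean over the 6 days, in 1 model of all 96 libraries, with edgeR's quasi-likelihood test and Benjamini-Hochberg adjustment over all miRNAs tested. A pair is an arm with a couple of cell types, and the threshold was 0.05. Among ECs, FBs and HCs 15 of 18 pairs passed, where 78.4% of all miRNA and cell type pairs did. With CMs 32 of 36 passed (76.3% of all), a count that is not read as a result. Of the 18 pairs with CMs 17 passed, and 6 of these were of miR-25-5p and miR-93-3p. Those arms entered the test through the other cell types and had the few counts given above in CMs. Pairs of CMs for both arms of miR-106b rest on values by which the cluster was chosen. They are given without a test, though the counts with CMs include them. The log2 fold change is on the TMM scale, which rescales libraries so that the typical miRNA stays level. Input amount, PCR cycles and preparation batch went with the cell type, so they cannot be told apart from it.

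HCs had more of the 5p arms of miR-106b and miR-93 than each other cell type. The log2 difference of FBs minus HCs was -1.996 ± 0.16 (SE) for miR-106b-5p (edgeR adjusted p = 5.87e-20) and -1.59 ± 0.13 for miR-93-5p (edgeR adjusted p = 1.998e-19). ECs minus HCs gave -1.37 ± 0.17 for miR-106b-5p (edgeR adjusted p = 3.93e-12) and -0.85 ± 0.13 for miR-93-5p (edgeR adjusted p = 1.29e-08). For the 3p arms ECs and HCs were closer, with -0.07 ± 0.08 for miR-25-3p (edgeR adjusted p = 0.419), which passed in 45 of 96 fits that left out 1 library, and 0.22 ± 0.10 for miR-106b-3p (edgeR adjusted p = 0.0415). The latter ranged from 0.020 to 0.262 and lost its call in 51 of those 96 fits, and it turned to -0.54 when library size alone was used for scaling.

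On the mean over the 6 days CMs had less miR-25-3p than each other cell type, at -1.36 ± 0.08 against ECs, -1.04 ± 0.08 against FBs and -1.44 ± 0.08 against HCs on the log2 scale (edgeR adjusted p = 1.28e-27, 6.23e-21 and 3.72e-29). This mean joins days that differ on the TMM scale, where miR-25-3p in CMs had log2 fold changes of -0.87 (D1) to -1.73 (D14) against D0. With the D0 libraries alone 17 calls among the pairs of all arms were lost without a change of sign. For miR-106b-5p the difference of CMs minus ECs was 0.51 ± 0.17, but it was -0.84 when library size alone was used and -2.93 in the D0 libraries alone. CMs minus FBs was 1.14 ± 0.17 for the same arm and -0.38 with library size alone. The order of CMs against ECs and FBs for miR-106b-5p thus changed with the scaling and with the days. The 4 pairs that did not pass were miR-93-5p between CMs and FBs (-0.05 ± 0.13), miR-93-3p between ECs and FBs (0.11 ± 0.22), and miR-25-5p (0.01 ± 0.22) and miR-25-3p between ECs and HCs.

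In CMs miR-106b-5p was at its lowest in mice without MI. The 4 libraries at D0 had 1.24, 1.13, 0.748 and 0.918 CPM, from 12 to 16 counts each. At D1 they had 1.61, 2.18, 38.3 and 25.2 CPM, and at D14 117, 95.2, 149 and 131 CPM. At D28 the level was 12.7, 42.5, 58.4 and 44.5 CPM. The D1 libraries thus split into replicates 1 and 2, near D0, and replicates 3 and 4, far above it. In CPM every library from D1 on lay above every D0 library. The same D1 split was present in the TMM factors, which were 0.491 and 0.543 in replicates 1 and 2 against 1.07 and 1.04 in replicates 3 and 4, and its part in the levels was not tested.

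miR-93-5p, the other arm with this seed, had 27.9, 8.78, 6.48 and 7.50 CPM in CMs at D0, 25.0, 28.5, 189 and 187 CPM at D1 and 245, 323, 228 and 352 CPM at D14. The D1 libraries split in the same way as for miR-106b-5p. Replicate 1 at D0 was the highest of its group, and every D14 library was above it.

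The 3p arms of miR-106b and miR-25 covered a narrower range in CPM. miR-106b-3p had 30.5, 36.5, 49.2 and 50.4 CPM at D0 and 48.1, 48.2, 29.5 and 45.4 CPM at D14, and these ranges overlapped. miR-25-3p had 260, 248, 290 and 287 CPM at D0 and 566, 495, 389 and 534 CPM at D14, all above D0 in CPM.

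The scaling mattered for these directions in CMs. The TMM factors of the D0 libraries were 0.289 to 0.357 and those of the D14 libraries 1.91 to 2.04. On the TMM scale the log2 fold changes of miR-106b-5p at D1, D3, D7, D14 and D28 were 2.45, 3.28, 4.27, 4.33 and 3.42 (SE 0.62 to 0.65), and with library size alone 4.06, 5.31, 6.62, 6.93 and 5.29. For miR-93-5p they were 1.58, 2.05, 1.94, 1.92 and 2.15 on the TMM scale.

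For miR-25-3p the TMM values were -0.87, -1.40, -1.61, -1.73 and -1.37, and with library size alone they had the opposite sign (0.29, 0.53, 0.69, 0.87 and 0.37). For miR-106b-3p they were -1.35, -1.996, -2.30, -2.56 and -1.87, and with library size alone -0.22, -0.07, -0.02, 0.04 and -0.16. The median of all miRNAs tested in CMs lay at 0.20 to 0.44 on the TMM scale. miR-106b-5p and miR-93-5p were above D0 under both. miR-25-3p changed direction with the scaling at every day, while miR-106b-3p changed it at D14 alone, where it was near 0 with library size alone.

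miR-93-3p was listed at 0 counts in all 4 CM libraries at D0, which allows up to 3 counts in each, and at 3 to 10 counts at D14, so no fold change is given for it. Of the marker lists, the summed level of the FB markers in CMs was 36.5 to 114 CPM at D0 and 1358 to 2188 at D14, that of the EC markers 4423 to 9789 and 19277 to 27651, and that of the HC markers 14.6 to 75.8 and 151 to 182. At D14 the level of miR-106b-5p in CMs (95.2 to 149 CPM) was above that in ECs (17.4 to 56.1) and FBs (14.9 to 22.6). HCs had 144 to 194 CPM of it, with 9192 to 13254 CPM of their own markers. The part of these cells in the CM values was not tested.

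The ratio of the 5p to the 3p arm of 1 hairpin in 1 library is free of scaling between libraries. For miR-106b it was taken as the log2 ratio of counts with 0.5 added to each. In CMs at D0 the libraries had -4.57, -4.97, -5.98 and -5.72, and the pooled libraries held 43.1 counts of 3p for each count of 5p. At D1 they had -4.57, -3.62, 0.03 and -0.63, with the split of the replicates seen in the levels. At D14 they had 1.28, 0.98, 2.34 and 1.53, and the pooled libraries held 2.79 counts of 5p for each count of 3p.

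The 5p arm exceeded the 3p arm in 14 of 24 CM libraries, including all 4 at D7 and all 4 at D14. At D28 the values were -1.385, 0.22, 0.47 and 0.24, between those of D0 and D14. The D0 and D14 libraries did not overlap.

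**Figure D3:**
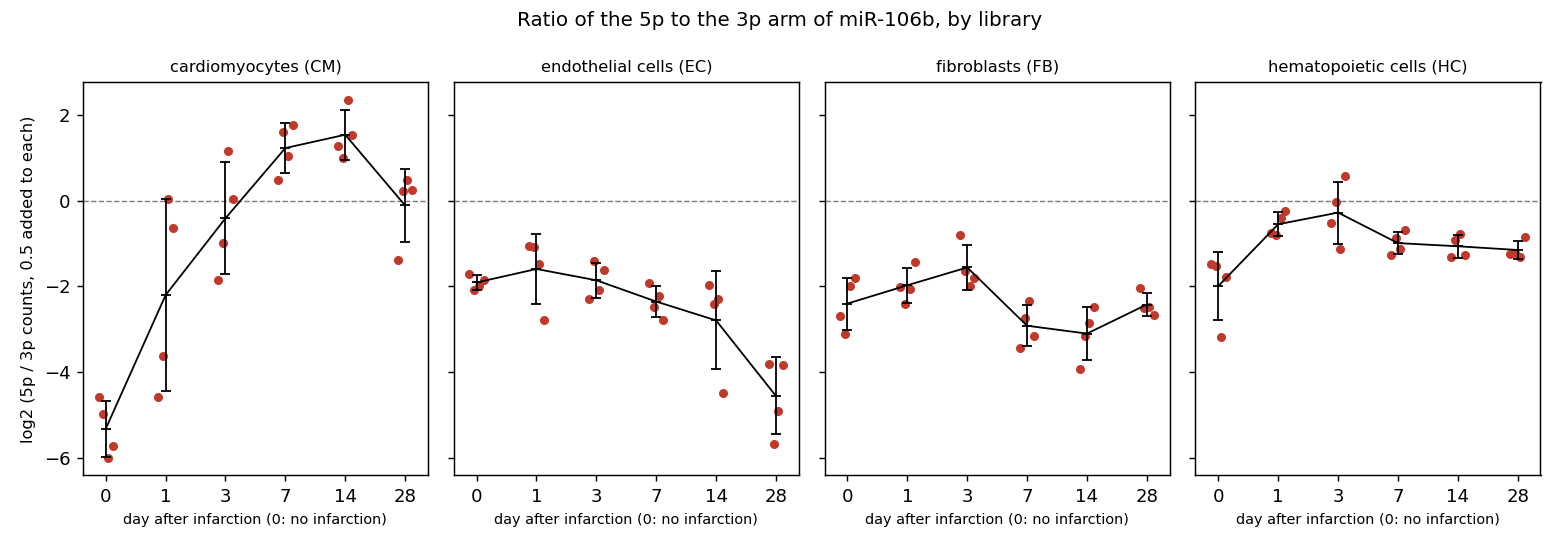
log2 ratio of the 5p to the 3p counts of miR-106b (0.5 added to each) in each library (points), with the mean and SD of the 4 libraries of a group (black), against the day after infarction, in the 4 cell types. The dashed line marks equal counts of the arms: 14 CM libraries and 1 HC library lie above it, and the EC libraries at D28 lie between -5.66 and -3.80.

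In the other cell types the miR-106b ratio was tested over the 6 days with limma's F test on the log2 ratio, with Benjamini-Hochberg adjustment over all hairpins tested. It differed among days in ECs (limma adjusted p = 0.000966), where 40.4% of all hairpins tested passed. It did so in FBs (limma adjusted p = 0.00616), where 49.7% passed, and in HCs (limma adjusted p = 0.0156), where 15.8% passed. In HCs the call was lost with a pseudocount of 5.

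In ECs the ratio was lowest at D28. The libraries had -1.70, -2.09, -1.99 and -1.85 at D0 and -3.80, -5.66, -4.90 and -3.84 at D28, without overlap. The 5p arm had 10 to 64 counts per library at D28, against 102 to 996 at D0, so the later values are less precise. In HCs it moved the other way, from -1.47, -1.52, -3.17 and -1.79 at D0 to -0.76, -0.81, -0.40 and -0.24 at D1. The mean was highest at D3, where the libraries were more spread, at -0.53, -0.04, -1.12 and 0.57. The value of -3.17 comes from the library with 18286 counts, where 5p had 0 counts and 3p had 4, and 1 of 3 hairpins was called in HCs without that library as with it.

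FBs had their highest ratio at D3 (-0.80, -1.65, -1.98 and -1.80) and their lowest at D14 (-3.93, -3.15, -2.84 and -2.47), and D0 lay from -3.10 to -1.80. The D3 and D14 libraries did not overlap. In ECs and FBs 3p exceeded 5p in every library, and in HCs in all but 1. Over the 6 days the mean ratio of CMs was above that of ECs by 1.63 ± 0.22 (SE), of FBs by 1.51 ± 0.22 and of HCs by 0.12 ± 0.22, given without a test because the cluster was chosen by these CM values. ECs minus HCs was -1.50 ± 0.22 (limma adjusted p = 1.98e-08), FBs minus HCs -1.39 ± 0.22 (limma adjusted p = 3.91e-07).

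For ECs minus FBs the difference was -0.11 ± 0.22 (limma adjusted p = 0.675), which does not show equal ratios. Without CMs 4 of 9 combinations of a hairpin with a couple of cell types passed (52.2% of all). They were miR-106b and miR-93 each between FBs and HCs, miR-106b between ECs and HCs, and miR-93 between ECs and FBs. With CMs 10 of 18 passed (58.2% of all), a count that is not read as a result. Of these 10, 6 were pairs with CMs. In those the miR-106b ratio is the value that chose the cluster, and miR-25-5p and miR-93-3p had means under 10 counts. For miR-93 3p had a mean under 10 counts in ECs as well, and its call between FBs and HCs was lost in 11 of 96 fits that left out 1 library.

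The arms of the other hairpins were further apart and did not pass over the days. For miR-93 the mean log2 ratio over 24 libraries was 8.65 in CMs, 8.55 in ECs, 8.45 in HCs and 7.89 in FBs, with 5p above 3p in all 96 libraries. The test over days gave an adjusted p of 0.178 in FBs and 0.213 in HCs by limma, and ECs were not tested because 3p had a mean of 9.88 counts. For miR-25 the means were -11.4 in CMs, -9.69 in ECs, -9.70 in HCs and -10.3 in FBs, with 3p above 5p in every library, and the test gave limma adjusted p = 0.502 in HCs, 0.549 in ECs and 0.553 in FBs. Between cell types, ratios of miR-93 and miR-25 changed sign with a pseudocount of 5 in several pairs. The minor arm had few counts, with a mean of 1.83 for miR-25-5p in CMs.

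Day changes against D0 in the other cell types were tested with edgeR's quasi-likelihood test on the 24 libraries of each cell type, with Benjamini-Hochberg adjustment over all miRNAs tested. The 6 arms and 5 days gave 30 tests in each cell type, of which 16 passed in HCs, 8 in FBs and 5 in ECs. The share of all miRNAs that passed also differed. By day it was 24% to 59% in HCs, 6.75% to 45.6% in FBs and 0% to 47% in ECs. The counts alone therefore do not rank the cell types by the response of the cluster. Over the 6 days together 5 of 6 arms passed in HCs (73.5% of all miRNAs did), 5 in FBs (68.2%) and 5 in ECs (58.2%). The exceptions were miR-93-3p in ECs (edgeR adjusted p = 0.0773) and miR-25-5p in FBs (0.241) and in HCs (0.115).

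**Figure D4:**
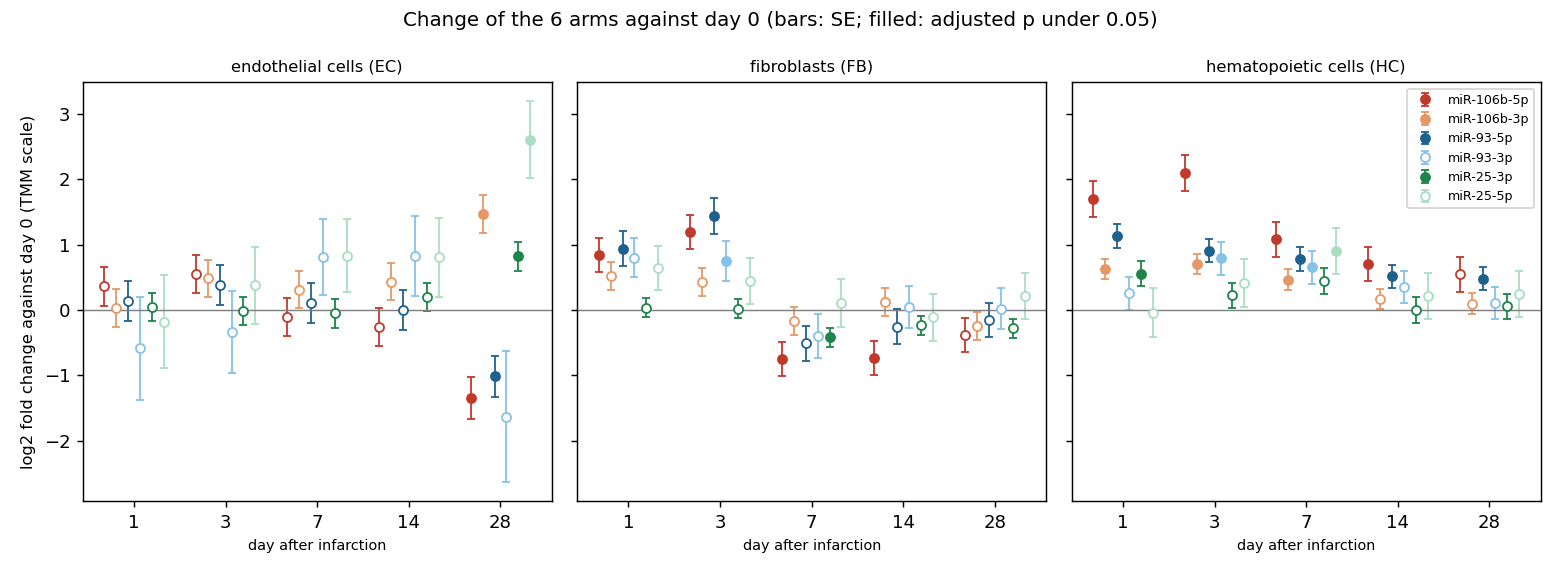
log2 fold change of each of the 6 arms against D0 on the TMM scale, with its standard error (bars), in ECs, FBs and HCs. Filled points passed an adjusted p of 0.05. In ECs the calls lie at D28 alone, with 3 arms above and 2 below 0, in FBs the calls at D1 and D3 lie above 0 and those at D7 and D14 below it, and in HCs all calls lie above 0.

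In HCs the 5p arms of miR-106b and miR-93 rose after infarction. Of the 6 arms 4 passed at D1 (54.3% of all miRNAs did) and 4 at D3 (59%). At D7 5 passed (49.5%), at D14 2 (28.1%) and at D28 1 (24%), all of them upward. miR-106b-5p had 98.9, 83.1, 0 and 69.1 CPM at D0 and 452, 457, 272 and 875 CPM at D3, with a log2 fold change of 2.10 ± 0.28 (SE, edgeR adjusted p = 4.34e-07). All D3 libraries were above all D0 libraries, and the 0 at D0 is the library with 18286 counts, without which the fold change was 2.05. It was 1.71 ± 0.27 at D1 and 1.09 ± 0.27 at D7 (edgeR adjusted p = 1.20e-05 and 0.00159).

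The later values for miR-106b-5p were smaller, with 0.71 ± 0.27 at D14 (edgeR adjusted p = 0.0481) and 0.55 ± 0.27 at D28 (edgeR adjusted p = 0.146). miR-93-5p had 983, 743, 1148 and 921 CPM at D0 and 1991, 2186, 2886 and 3395 CPM at D1, without overlap. Its log2 fold changes at D1, D3, D7, D14 and D28 were 1.13, 0.91, 0.78, 0.52 and 0.48 (SE 0.18 each, edgeR adjusted p = 9.38e-06, 0.000100, 0.000700, 0.0297 and 0.0474). When each of the 24 HC libraries was left out in turn, the D14 call was lost in 17 of 24 fits for miR-106b-5p and in 6 for miR-93-5p, and the D28 call of miR-93-5p in 16. For both arms the calls at D1, D3 and D7 were kept in all 24. The fit without replicate 3 of D0 was among those that lost the D14 call of miR-106b-5p (edgeR adjusted p = 0.0547) and the D28 call of miR-93-5p (edgeR adjusted p = 0.0691).

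The 3p arms in HCs moved by less. miR-106b-3p rose by 0.63 ± 0.16 at D1, 0.71 ± 0.16 at D3 and 0.47 ± 0.15 at D7 on the log2 scale (edgeR adjusted p = 0.00132, 0.000331 and 0.0141), and had 0.17 at D14 and 0.10 at D28. miR-25-3p had 3796, 3238, 3062 and 3430 CPM at D0 and 7352, 5682, 5548 and 7174 CPM at D1, all above D0, with a log2 fold change of 0.56 ± 0.19 (edgeR adjusted p = 0.0189, lost in 3 of 24 fits that left out 1 library, with 0.0588 without replicate 3 of D0). The D7 call of miR-106b-3p was lost in 1 of 24, and its calls at D1 and D3 in 0.

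Of the rare arms, miR-93-3p passed at D3 (0.79 ± 0.26) and D7 (0.66 ± 0.25), and miR-25-5p at D7 (0.90 ± 0.36). With 1 library left out the D7 call of miR-25-5p was lost in 3 of 24 fits, and its fold change ranged from 0.295 to 1.16 on the log2 scale, the lowest without replicate 2 of D7. The calls of miR-93-3p were lost in 1 fit at D3 and 4 at D7. Without replicate 3 of D0 13 of the 30 tests passed, and 24 when library size alone was used. The share of all miRNAs that passed in these fits is not given, so these counts are not read as a result. The summed HC markers in HCs were 6819 to 10015 CPM at D0 and 18244 to 25731 at D1, and the CM markers in HCs 85776 to 132287 at D0 and 38493 to 64736 at D3. From D0 to D3 the EC markers in HCs went from 54905 to 91837 CPM to 14781 to 21541. The mural cell markers went from 21695 to 32350 CPM to 4768 to 7316, and the FB markers from 4229 to 4533 to 2362 to 3431. Erythroid markers went the other way, from 54.7 to 144 CPM to 133 to 410. The part of this shift in the purity of the fraction in the values of the cluster was not tested.

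In FBs the same 5p arms were higher at D1 and D3, and miR-106b-5p was lower at D7 and D14. At D1 2 arms passed (7.99% of all miRNAs did) and at D3 3 (43%), all upward. At D7 2 passed (45.6%) and at D14 1 (24.7%), all downward, and at D28 0 (6.75%). At D28 0 arms had an unadjusted p under 0.05 in edgeR, and 0 passed with DESeq2. miR-93-5p had 241, 172, 425 and 340 CPM at D0 and 1241, 1459, 776 and 599 CPM at D3, all above D0, with a log2 fold change of 1.44 ± 0.27 (SE, edgeR adjusted p = 9.48e-05). miR-106b-5p had 23.0, 17.6, 44.9 and 36.4 CPM at D0 and 128, 103, 57.0 and 76.2 CPM at D3, again without overlap, with 1.202 ± 0.26 (edgeR adjusted p = 0.000531).

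At D1 miR-106b-5p was at 0.85 ± 0.26 and miR-93-5p at 0.94 ± 0.27 (edgeR adjusted p = 0.0398 and 0.0274). miR-93-3p, the other strand of the miR-93 duplex, passed at D3 with 0.75 ± 0.30 (edgeR adjusted p = 0.0457), and this call was lost in 13 of 24 fits that left out 1 FB library. The D1 calls were lost in 5 fits for miR-106b-5p and 4 for miR-93-5p, and the D3 calls of these 2 arms in 0. At D7 miR-106b-5p fell by 0.74 ± 0.26 on the log2 scale (edgeR adjusted p = 0.0226), with 14.3, 21.1, 31.0 and 20.6 CPM, and these overlapped D0. At D14 it fell by 0.74 ± 0.26 (edgeR adjusted p = 0.0420). These calls were lost in 7 fits at D7 and 9 at D14, and without replicate 3 of D0 the log2 fold changes were -0.46 and -0.45.

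miR-25-3p in FBs had 2074, 2493, 2801 and 2225 CPM at D0 and fell by 0.42 ± 0.15 on the log2 scale at D7 (edgeR adjusted p = 0.0236), a call lost in 7 of 24 fits that left out 1 library, and was at 0.04 ± 0.15 at D1 and 0.02 ± 0.15 at D3. The number of calls in FBs was 4 without replicate 3 or without replicate 4 of D0, and 5 without replicate 2 of D0, replicate 3 or 4 of D1, replicate 1 of D7, or replicate 2, 3 or 4 of D28. The erythroid markers in FBs, summed, ranged from 241 to 938 CPM at D0, 304 to 1410 at D3 and 80.9 to 242 at D28, and their part in the values was not tested.

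In ECs no arm passed before D28, where the arms went in opposite directions. At D1, D3, D7 and D14 0 of 6 arms passed in edgeR, 0 had an unadjusted p under 0.05 and 0 passed with DESeq2. Of all 421 miRNAs tested, 0% passed at D1 (17 at an unadjusted p under 0.05, and 5 with DESeq2), 17.6% at D3, 22.6% at D7 and 14.5% at D14. At D3 the libraries for miR-106b-5p, miR-106b-3p and miR-93-5p were all above those of D0 on the TMM scale, where 23.8% of all miRNAs were, without passing the test. At D28 5 of 6 arms passed, where 47% of all miRNAs did.

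The 5p arms of miR-106b and miR-93 fell. miR-106b-5p had 53.9, 44.8, 48.7 and 48.4 CPM at D0 and 24.7, 16.9, 15.7 and 16.4 CPM at D28, all below D0, with a log2 fold change of -1.35 ± 0.32 (SE, edgeR adjusted p = 0.00127). miR-93-5p had 636, 506, 532 and 561 CPM at D0 and 611, 177, 101 and 226 CPM at D28, with -1.02 ± 0.31 (edgeR adjusted p = 0.00800). Replicate 1 at D28 was within the D0 range for miR-93-5p and the other 3 were below it.

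The 3p arms of miR-106b and miR-25 rose at D28. miR-106b-3p had 176, 191, 193 and 175 CPM at D0 and 358, 869, 491 and 236 CPM at D28, all above D0, with 1.48 ± 0.29 (edgeR adjusted p = 0.000193). miR-25-3p had 2236, 1944, 2446 and 2170 CPM at D0 and 3733, 5320, 3144 and 2707 CPM at D28, all above D0, with 0.82 ± 0.22 (edgeR adjusted p = 0.00287). The rare arm miR-25-5p had 1.95, 2.18, 1.76 and 0.950 CPM at D0 and 11.4, 1.09, 18.9 and 13.1 CPM at D28, where replicate 2 overlapped D0, with 2.61 ± 0.59 (edgeR adjusted p = 0.000671). It rested on 2 to 51 counts per library at D28.

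These EC libraries were shallow, with 525651 to 3902765 counts at D28 against 2105446 to 20465553 at D0. The summed EC markers ranged from 103768 to 224231 CPM at D28 and from 174749 to 215247 at D0, and the mural cell markers from 22370 to 102093 and from 48200 to 62913. The CM markers in ECs ranged from 21003 to 80702 CPM at D28 and from 75957 to 134289 at D0, and the FB markers from 2195 to 7798 and from 2016 to 2845. The part of depth and of CMs, mural cells and FBs in the D28 values was not tested. The count of calls in ECs was 5 in every fit that left out 1 library. Without replicate 2 of D28 the log2 fold change was 0.86 for miR-106b-3p and 0.46 for miR-25-3p, and without replicate 1 of D28 it was -1.71 for miR-93-5p.

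Whether the change against D0 differed between cell types was tested by the interaction of day with cell type among ECs, FBs and HCs, with edgeR on the model of all 96 libraries. Of 90 tests (6 arms, 5 days and 3 pairs of cell types) 9 passed, where 14.2% of all miRNA tests did. Of these 4 were between ECs and HCs at D28 (24.6% of all miRNAs passed there), 3 between ECs and FBs at D28 (25.1%), and 1 each between ECs and HCs at D3 and between FBs and HCs at D7.

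At D28 miR-106b-3p and both arms of miR-25 changed upward by more in ECs than in FBs. The difference of the log2 fold changes, ECs minus FBs, was 1.68 for miR-106b-3p (edgeR adjusted p = 0.000190), 1.03 for miR-25-3p (0.00406) and 2.29 for miR-25-5p (0.00710). Against HCs at D28 it was 1.18 for miR-106b-3p (edgeR adjusted p = 0.0123) and 2.13 for miR-25-5p (0.0121), and for the 5p arms -2.14 for miR-106b-5p (0.00715) and -1.84 for miR-93-5p (0.00236). At D3 ECs minus HCs was -1.64 for miR-106b-5p (edgeR adjusted p = 0.0192), and at D7 FBs minus HCs was -1.72 for the same arm (edgeR adjusted p = 0.0301). The number of calls ranged from 8 to 17 when each library was left out, and was 16 without replicate 3 of HCs at D0. Without replicate 2 of ECs at D28, ECs minus FBs at D28 was 1.01 for miR-106b-3p and 0.62 for miR-25-3p, and ECs minus HCs was 0.51 for miR-106b-3p, the last 2 no longer called. Without replicate 3 of FBs at D0, ECs minus FBs for miR-25-3p was 0.66 and not called.

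The arms of the cluster were set beside other miRNAs of the same seed, called relatives here. These were found by the seed alone, and not all come from the paralogous clusters: miR-32-5p is in neither. The abundant ones are shown because they share the seed and differ from the cluster's arms outside it. The upper 3 have the seed of miR-106b-5p and miR-93-5p and the others that of miR-25-3p. The capitals mark the seed, and the sequences are from RefSeq (GRCm38.p6).
miR-17-5p: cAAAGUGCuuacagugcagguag
miR-20a-5p: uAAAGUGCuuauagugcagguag
miR-106a-5p: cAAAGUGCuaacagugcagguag
miR-92a-3p: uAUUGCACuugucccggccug
miR-32-5p: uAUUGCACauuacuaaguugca

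Of the 5 relatives of the 5p seed 4 were tested in each cell type, and miR-6383 had 0 CPM in every cell type. In FBs all 4 rose at D1 (7.99% of all miRNAs passed in either direction), with a median log2 fold change of 1.85, and all 4 rose at D3 (43%), with a median of 2.26, where the median of all miRNAs was near 0 on each day (-0.001 and 0.06). In ECs all 4 fell at D28 (47% of all passed), with a median of -1.49 (0.07 over all miRNAs). In HCs 3 of 4 rose at D1 (54.3%), 3 at D3 (59%) and 4 at D7 (49.5%), with medians of 1.16, 0.94 and 0.81. miR-17-5p and miR-106a-5p have nearly the same sequence, and had log2 fold changes of 2.27 and 2.25 in FBs at D3. How reads that match several sequences were counted is not given, so the 4 relatives may not be independent.

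miR-20a-5p, of the miR-17-92 cluster, had a mean of 308 CPM in FBs at D0 and 2038 at D3, 1422 in HCs at D0 and 5132 at D1, and 681 in ECs at D0 and 244 at D28. In CMs, without a test, miR-17-5p had means of 4.90 CPM at D0 and 238 at D14, miR-106a-5p 3.66 and 160, and miR-20a-5p 20.7 and 468. Over these and miR-20b-5p, the 4 relatives fitted in CMs, the median log2 fold changes on the TMM scale were 2.00, 2.63, 2.54, 2.41 and 2.31 at D1, D3, D7, D14 and D28. miR-20b-5p had a mean of 1.95 CPM in CMs.

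**Figure D5:**
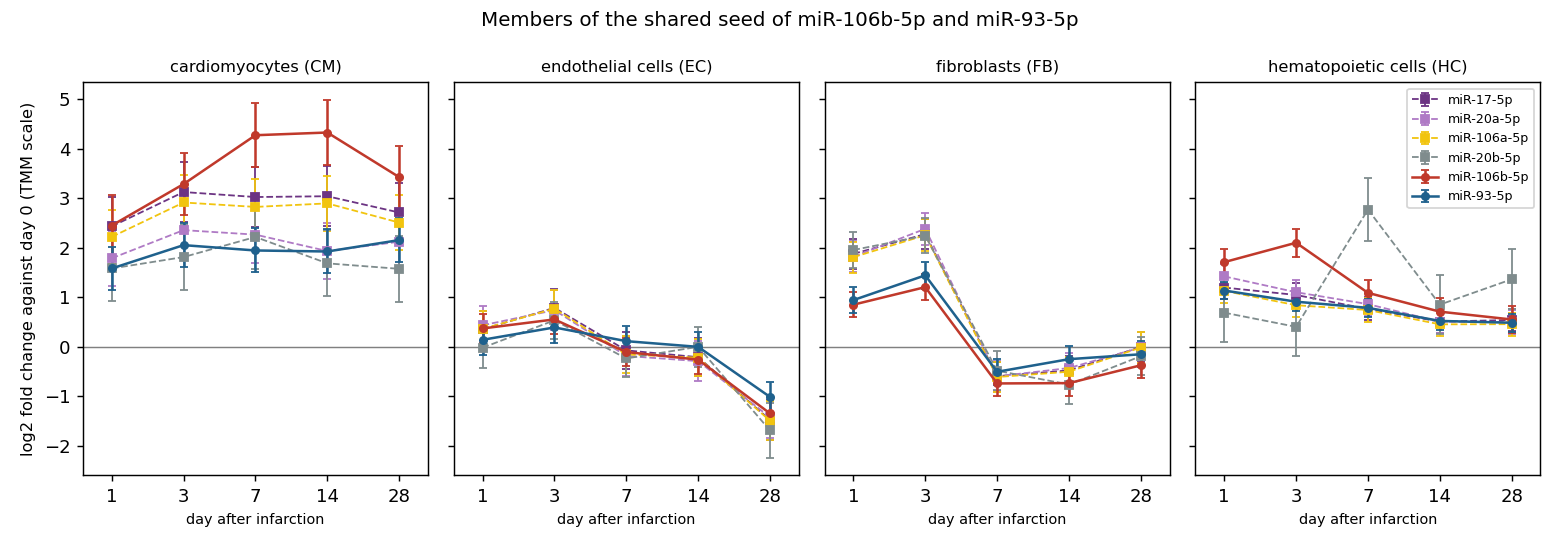
log2 fold change against D0 on the TMM scale, with its standard error (bars), of miR-106b-5p and miR-93-5p (solid lines) and of 4 relatives with the same seed (dashed lines), in the 4 cell types. In FBs at D3 the relatives lie near 2.3 and the cluster's arms at 1.202 and 1.44, in ECs at D28 all lie below 0, and in CMs, where no test was made, miR-106b-5p lies highest from D3 on.

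For the seed of miR-25-3p the relatives were miR-92a-3p, miR-92b-3p, miR-32-5p, miR-363-3p and miR-367-3p, of which the last had 0 CPM in every cell type. In ECs at D28 miR-92a-3p rose by 0.77 and miR-32-5p fell by 1.74 on the log2 scale, both called, and in FBs 2 of 3 rose at D1 (7.99% of all passed), 2 of 3 fell at D7 (45.6%), and 1 fell at D14 (24.7%) and 1 at D28 (6.75%). In CMs miR-92a-3p had a mean of 1.63 CPM at D0 and 16.4 at D14, against 271 and 496 CPM for miR-25-3p. Of the 14 arms listed for miR-17-92, 9 were tested in FBs, where 5 rose at D1 (7.99% of all) and 5 at D3 (43%), with 3 lower at D7 (45.6%), 2 lower at D14 (24.7%) and 1 lower at D28 (6.75%). Of the 7 tested in ECs 1 rose and 4 fell at D28 (47% of all). Of the 11 tested in HCs 8 rose at D1 (54.3%), 6 at D3 (59%), 4 at D7 (49.5%) and 1 at D14 (28.1%). Of the 14 arms listed for miR-106a-363, 5 were tested in FBs. There 3 rose at D1 (7.99% of all) and 2 at D3 (43%), with 2 lower at D7 (45.6%), 1 lower at D14 (24.7%) and 1 lower at D28 (6.75%). In ECs 4 were tested, of which 1 rose and 3 fell at D28 (47%). In HCs 9 were tested, of which 3 rose at D1 (54.3%), 2 at D3 (59%), 5 at D7 (49.5%) and 1 at D28 (24%). Arms of both lists, such as miR-19b-3p and miR-92a-3p, come from either cluster. Counts of miR-106a-5p may not be separate from those of miR-17-5p, which has nearly the same sequence. Both lists were drawn up by name and hold miR-19b-1-5p, miR-19b-2-5p, miR-92a-1-5p and miR-92a-2-5p, though each cluster carries only its own copies. Thus miR-92a-1-5p (in FBs and HCs) and miR-19b-1-5p (in HCs), of miR-17-92, count among the tested arms of miR-106a-363. Neither was called against D0 at any day there.

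The pattern over the 24 groups was compared among miRNAs by Spearman's correlation of the group mean log2 CPM (TMM scale), over 298 miRNAs whose mean reached 10 CPM, as a description. The 24 groups share the libraries' scaling and the difference among cell types. miR-93-5p was most like miR-106a-5p (0.92), miR-20a-5p (0.92) and miR-17-5p (0.90). Of these, miR-106a-5p and miR-17-5p have nearly the same sequence and may not be separate matches. miR-106b-5p was most like miR-17-3p (0.89), miR-32-5p (0.83) and miR-19b-3p (0.83), and stood at 0.66 with miR-93-5p. miR-25-3p was most like miR-423-5p (0.87), miR-342-5p (0.85) and miR-338-5p (0.84), and next came miR-106b-3p at 0.82.

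Among the cluster's own arms the 3p arm of miR-106b was close to miR-25-3p, while its 5p arm was at -0.08 with it and at 0.09 with miR-25-3p. The deviations of single libraries from their group mean showed the same grouping in several cell types. Over the 24 libraries of a cell type, Pearson's r between miR-106b-3p and miR-25-3p was 0.92 in CMs, 0.83 in HCs, 0.74 in ECs and 0.66 in FBs. Between miR-106b-5p and miR-93-5p it was 0.78, 0.17, 0.45 and 0.69 in that order, and between the miR-106b arms -0.65, 0.65, -0.35 and -0.04. These points share the depth and the TMM factor of the library.

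Reads that matched no mature sequence were aligned to the hairpins. For mir-106b the number of such alignments per mature count was 0.196 ± 0.080 (SD, n = 4) in CMs at D0 and 0.631 ± 0.160 at D14. In ECs it was 0.352 ± 0.034 at D0 and 0.180 ± 0.063 at D28. For mir-25 it was 0.221 ± 0.056 in CMs at D0 and 0.134 ± 0.016 at D14. Where in the hairpin these reads lie is not recorded in the tables, and a read may be counted more than 1 time.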

How the data were processed

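Per the labels, adapters were trimmed with Trim Galore and the tools SAMtools and Bowtie2 and the build mm10 were named. By the study's methods, libraries were made with a small RNA kit, reads under 18 nt were removed and the nf-core small RNA pipeline counted alignments to miRBase 21. Versions of the tools and the counting of multiply matching reads are not given in the sources used here. The authors deposited raw counts per mature miRNA and, from the reads left over, per hairpin, without normalization, in 192 tables. The last row, reads without a match, was kept out. The labels call the 4 libraries of a group biological replicates of pooled mice, the paper also calls them technical, and p-values measure the spread between these libraries, which may be technical.

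CPM were computed from mature counts. Tests used edgeR 4.0.16 (TMM, filterByExpr, quasi-likelihood) and limma 3.58.1 (log2 ratio with 0.5 added, a mean of at least 10 counts per arm) in R 4.3.3, p-values adjusted by Benjamini-Hochberg and called under 0.05. They were checked on simulated counts. The alternatives were DESeq2 1.42.0, library size alone, no filter, a pseudocount of 5, a minimum of 50 counts, a replicate block, libraries left out, and D0 alone. The block was the replicate number, joined with the day where cell types were compared. Intervals and limits from 0 counts cover counting error only. miRNAs named besides the cluster were relatives with at least 100 CPM in 1 cell type, the 3 nearest patterns and the markers, and single libraries are given for D0 and the day of the largest change. miR-20b-5p, miR-92b-3p, miR-363-3p, miR-367-3p and miR-6383 fall outside that rule where they are named. The members and lists were chosen with earlier results of these data known. The study removed 1 replicate each of ECs at D28, HCs at D0 and FBs at D0 without naming it, and all 96 libraries were kept here.

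The sources do not say that equal replicate numbers mark the same mice, and the main tests did not take the numbers as pairs. Correlations of their deviations exceeded 0.1 in 6, 5, 5 and 1 of 15 pairs of days in CMs, ECs, FBs and HCs, and in 13 of 36 pairs of cell types. Hairpin positions came from the genome annotation GENCODE M21 and RefSeq sequences.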

Additional observations from a re-analysis of the deposited data

Results flagged for a closer look

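In 10 of 120 groups of 4 libraries the highest or lowest library stood far from the others, where chance gives about 6. For miR-106b-5p these were replicate 4 of ECs at D14 (17.4 CPM) and replicate 1 of ECs at D28 (24.7 CPM). For miR-106b-3p they were replicate 2 of CMs at D1 (27.3 CPM) and replicate 3 of CMs at D14 (29.5 CPM). For miR-93-5p they were replicate 1 of CMs at D0 (27.9 CPM), replicate 1 of CMs at D28 (76.4 CPM), replicate 2 of FBs at D14 (222 CPM) and replicate 2 of HCs at D7 (2631 CPM). For miR-25-3p it was replicate 4 of ECs at D1 (2876 CPM), and for the log2 ratio of miR-106b it was replicate 1 of CMs at D28 (-1.385).

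The change against D0 differed between cell types in 9 of 90 tests, where 14.2% of all miRNA tests passed. ECs minus FBs at D28 was 1.68 for miR-106b-3p, 2.29 for miR-25-5p and 1.03 for miR-25-3p on the log2 scale. ECs minus HCs was -1.64 for miR-106b-5p at D3, and at D28 -2.14 for miR-106b-5p, 1.18 for miR-106b-3p, -1.84 for miR-93-5p and 2.13 for miR-25-5p. FBs minus HCs at D7 was -1.72 for miR-106b-5p. The edgeR adjusted p of each stands in the report, and each of the 9 passed in at least 91 of 96 fits that left out 1 library.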

How the results depend on the processing

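With the replicate number as a block, 5 of 30 tests of an arm and a day passed in ECs, 6 in FBs and 15 in HCs. Where cell types were joined, the block was the day together with the replicate number, which treats equal numbers at a day as 1 pool. With it 31 of 36 pairs of cell types, 9 interactions and 10 ratio pairs passed. These blocks moved no count by over 1.5 times. The main tests did not take equal numbers as pairs. Counts that moved by over 1.5 times were those without a filter (4 in FBs and 10 in HCs), library size alone for the interactions (15), the D0 libraries alone for the pairs of cell types (15), the pseudocount of 5 for the ratio in HCs (0 of 3 hairpins) and the minimum of 50 counts for the ratio pairs (4). Library size alone gave 24 calls in HCs, and the 3 libraries that stand farthest from their groups left out gave 11 in HCs. The share of all miRNAs that passed is not given for these settings or for fits with a library left out. Their counts show how calls moved and are not read as results about the cluster.

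With library size alone the following turned: miR-25-3p in CMs (0.29, 0.53, 0.69, 0.87 and 0.37 from D1 to D28), miR-106b-3p in CMs at D14 (0.040), CMs minus ECs and CMs minus FBs for miR-106b-5p (-0.84 and -0.38), ECs minus FBs for miR-93-3p (-0.084), and ECs minus HCs for miR-106b-3p (-0.54) and miR-25-5p (-0.76). With D0 alone CMs minus ECs was -2.93 for miR-106b-5p and 0.53 for miR-106b-3p, CMs minus FBs -1.995 and 1.08, CMs minus HCs 0.74 for miR-106b-3p, and ECs minus HCs -0.36 for miR-25-5p and 0.084 for miR-25-3p. Without a filter ECs minus HCs was -0.29 for miR-106b-3p and -0.51 for miR-25-5p. For miR-25-5p it was -0.010 with the block and -0.020 without the 3 libraries. With a pseudocount of 5 the ratio differences of miR-93 were -0.057 (CMs minus ECs), -0.36 (CMs minus FBs), -0.98 (CMs minus HCs), -0.30 (ECs minus FBs) and -0.92 (ECs minus HCs), and those of miR-25 0.62 (CMs minus FBs) and 0.063 (CMs minus HCs). The causes were not tested.

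When each library was left out, calls ranged from 5 to 5 in ECs, 4 to 8 in FBs and 12 to 19 in HCs, arms changed over the days from 4 to 6 in ECs, 4 to 5 in FBs and 4 to 6 in HCs, pairs of cell types from 31 to 32 and ratio pairs from 9 to 12. The ratio in ECs was called for 1 to 2 hairpins, with 2 without replicate 2 of D28. Interactions ranged from 8 to 17. They were 8 to 11 in 52 fits whose TMM reference was replicate 3 of FBs at D28, as with all libraries, and 14 to 17 in 45 with replicate 2 of FBs at D14. ECs minus HCs ranged from -0.017 to 0.188 for the ratio of miR-93, -0.068 to 0.188 for that of miR-25, and -0.22 to 0.071 for miR-25-5p, and ECs minus FBs for miR-93-3p from -0.86 to 0.17. ECs minus FBs for miR-25-3p (0.32 with all libraries) ranged from 0.175 to 0.348 and passed in all 96 fits. In CMs the D14 minus D0 ratio of miR-106b was 6.84, 6.42 with a pseudocount of 5 and 6.58 to 7.09 with a library left out.

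Depth limits the arms miR-93-3p and miR-25-5p in CMs and ECs, and all arms in replicate 3 of HCs at D0.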
